A study of Mus musculus with 6 samples.

Results

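The genes described here are the Wnt ligands, the Frizzled receptors and Lrp co-receptors through which they act, and the secreted proteins that hold them back, measured in the retina of newborn mice with and without Meg2. They were chosen by gene symbol: every Wnt gene, every Frizzled (Fzd) gene other than Fzd4, the secreted Frizzled-related genes Sfrp1, Sfrp2, Sfrp4 and Sfrp5, Frzb, Wif1, Dkk1, Dkk2, Lrp5 and Lrp6. This gave 38 genes among the 21789 transcript clusters that carried a single gene symbol, a transcript cluster being the group of array probes that covers one transcript. The 38 comprised 19 ligands, 9 Frizzled receptors, 2 co-receptors and 8 antagonists. Each was read by its cluster with the highest mean signal.

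The study compared 3 Meg2 knockout with 3 wild-type mice at postnatal day 0, all on the C57BL/6NTac background, with both retinae of an animal pooled on 1 whole-transcript array. Ptpn9 is the gene of Meg2, a tyrosine phosphatase. The labels give neither the deleted part of Ptpn9 nor whether the deletion was limited to a cell type, and they call the samples biological replicates. Values are normalised log2 signals, so a difference of 1 is a doubling.

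Wnt proteins are lipid-modified secreted ligands that bind Frizzled receptors. With Lrp5 or Lrp6 as co-receptor they stabilise beta-catenin, which turns on target genes together with TCF and LEF factors. Other Wnt signals, through Frizzled, Ror or Ryk, act on cell polarity and axon growth. In the eye, Wnt signalling is known for the patterning of the ciliary margin, for retinal progenitors and for the growth and regression of vessels.

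Ptpn9 read 9.31, 9.58 and 9.28 in the knockout and 10.05, 9.93 and 9.94 in the wild type, a difference of -0.58 (SE 0.087; limma, adjusted p = 0.437). Every knockout array lay below every wild-type array, which does not test the deletion itself, as the deleted part is not given. Array medians lay between 7.84 and 7.91. Markers of progenitors, ganglion cells, photoreceptor precursors, and amacrine and horizontal cells stood above background for every measured gene (7, 7, 7 and 8 genes), as the tissue label says. The replicate numbers 1 to 3, shared by both genotypes, marked arrays that resembled each other. Both number 1 arrays carried Xist at 12.58 and 12.73 and the Y-linked gene Uty at 5.22 and 4.71. Both number 3 arrays had Xist at 6.26 and 6.52 and Uty at 9.53 and 9.34. Both number 2 arrays held the pair together, with Xist at 12.54 and 12.55 and Uty at 7.18 and 7.67, although the labels describe 1 animal per array. In bulk retina, fewer cells of a type and less RNA per cell cannot be told apart.

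The first question was which of the genes gave signal in the newborn retina. All 11 receptors and co-receptors stood above background, as did 5 of the 8 antagonists and 14 of the 19 ligands. Background was set at 7.18, the 95th percentile of the mean signals of 1035 clusters of olfactory receptor genes, a family that retina is not known to use. Of the 30 genes above it, 12 also lay above 8.51, the median of all named clusters: 8 receptors and co-receptors, 2 antagonists and 2 ligands. Most ligands thus lay in a narrow band between the background limit and the median, and 69.6% of all named clusters stood above the limit. With the 99th percentile as the limit instead, 19 of the 38 genes stood above it. These were the 11 receptors and co-receptors, Sfrp1, Sfrp2, Wnt5b, Wnt10a, Wnt7b, Wnt4, Wnt9a and Wnt9b. Signals of different clusters rest on different probes and give no order of abundance. How far the base composition of the probes sets a dim signal was not tested.

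**Figure D1:**
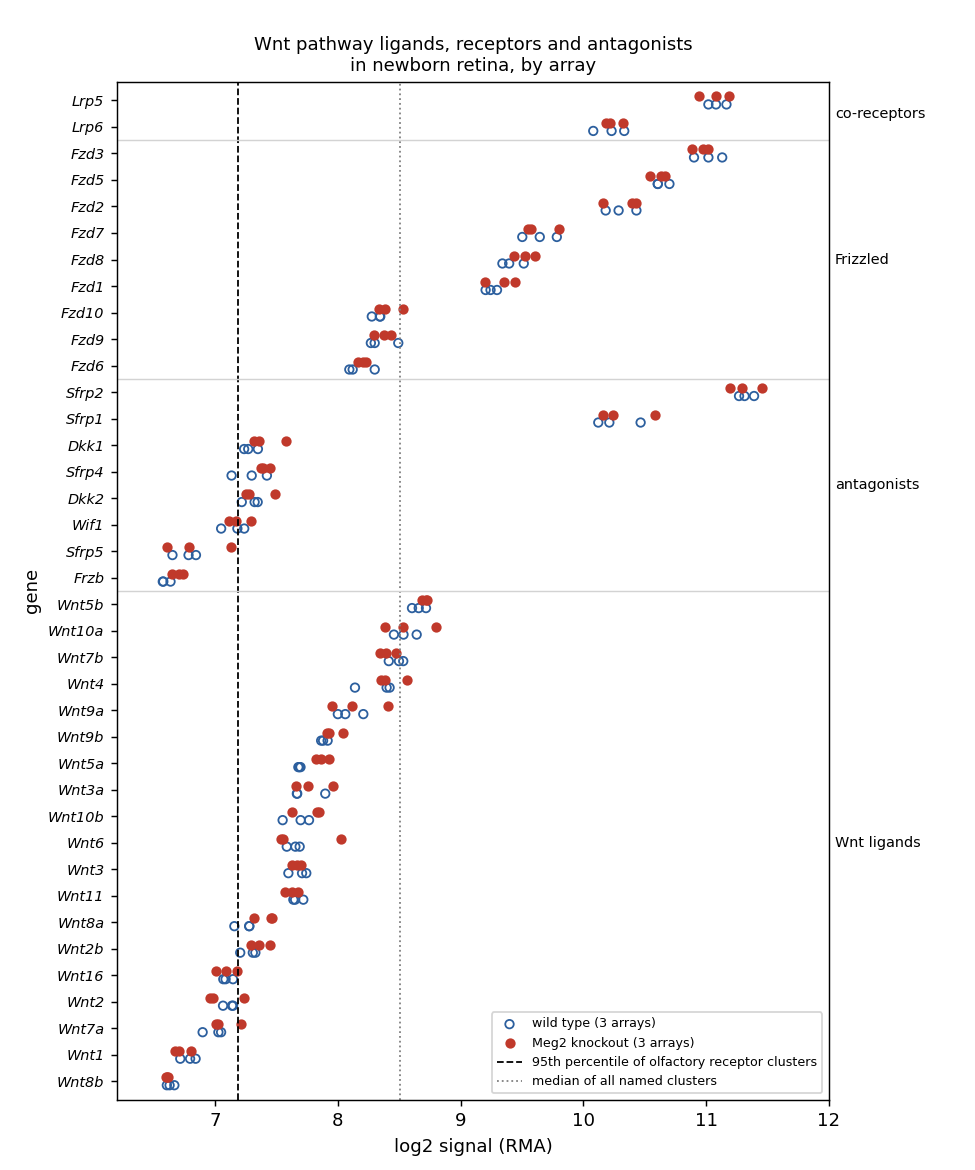
Log2 signal of the 38 genes (rows, grouped by role) on each of the 3 knockout arrays (filled) and 3 wild-type arrays (open). The dashed line is the background limit of 7.18 and the dotted line the median of all named clusters, 8.51. Receptors and co-receptors lie right of the limit, ligands between 6.62 and 8.69 on average, and the arrays of both genotypes overlap for most genes.

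Both co-receptors gave strong signal. Lrp5, whose loss is known to leave the retinal vessels stunted, read 11.08, 10.94 and 11.19 in the knockout and 11.08, 11.02 and 11.17 in the wild type. Lrp6 read 10.21, 10.19 and 10.33 in the knockout and 10.08, 10.23 and 10.33 in the wild type. The arrays of the genotypes overlapped for both genes.

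Among the receptors, Fzd3, known for axon guidance and planar polarity, read 10.89, 11.02 and 10.97 in the knockout and 10.90, 11.02 and 11.13 in the wild type. Fzd5, a receptor of the early eye field and of retinal progenitors, read 10.54, 10.67 and 10.63 against 10.61, 10.70 and 10.61. Fzd2 read 10.43, 10.16 and 10.40 against 10.29, 10.18 and 10.43. The arrays of the genotypes overlapped for all 3 receptors, with wild-type replicate 3 the highest for Fzd3. Fzd7 read 9.55, 9.80 and 9.58 in the knockout and 9.50, 9.78 and 9.65 in the wild type. Fzd8, a close relative of Fzd5, and Fzd1 averaged 9.47 and 9.29 over the 6 arrays, above the median of all clusters. Fzd10, Fzd9 and Fzd6 averaged 8.37, 8.36 and 8.19, below it.

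The antagonists fell apart into bright and dim signals. Sfrp2, which carries a Frizzled-like cysteine-rich domain and binds Wnt proteins outside the cell, read 11.29, 11.46 and 11.19 in the knockout and 11.31, 11.39 and 11.27 in the wild type. Its mean lay at the 90.3rd percentile of named clusters. The related Sfrp1 read 10.24, 10.58 and 10.16 against 10.12, 10.47 and 10.21. The remaining antagonists averaged from 6.65 to 7.35. Dkk1 and Dkk2, which bind Lrp5 and Lrp6, averaged 7.35 and 7.32, and Sfrp4 7.34, all just above the background limit. Wif1, a Wnt-binding inhibitor, lay just below it at 7.17, and Sfrp5 (6.80) and Frzb (6.65) lay further below.

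Among the ligands, Wnt5b (8.69) and Wnt10a (8.56) were the ones above the median of all clusters. Wnt7b, which macrophages use in the regression of the fetal vessels of the eye, averaged 8.44. Wnt4 averaged 8.38 in its brighter cluster, and its other cluster read 7.61 to 7.87. Wnt9a (8.12), Wnt9b (7.92), Wnt5a (7.78), Wnt3a (7.77), Wnt10b (7.72), Wnt6 (7.67), Wnt3 (7.67) and Wnt11 (7.65) followed. Wnt8a (7.33) and Wnt2b (7.32), a ligand of the ciliary margin, lay close to the limit. Wnt16 (7.09), Wnt2 (7.09), Wnt7a (7.04), Wnt1 (6.76) and Wnt8b (6.62) lay below it, where signal cannot be told from that of olfactory receptor clusters.

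Promoters are shown because most of those that were read were rich in CpG, a feature that the choice of genes did not use. RefSeq windows of assembly GRCm38.p6 were matched for 26 of the 38 genes, and the 250 bases before the annotated start were read. The first listed window of each held a median of 22 CpG dinucleotides and 69.4% G or C, against 6 CpG and 52.4% over all 32851 windows. At least 12 CpG stood in 22 of the 26 genes, beside 33.5% of all windows. The 2 sets are unlike, as all windows include later starts of a gene, which held fewer CpG in the members that had them. Wnt5b held 35 in its first window and 4 and 7 in later ones, and Wnt11 held 37 and 16. How far this widens the contrast was not tested. Dkk2 (7), Wnt16 (9), Dkk1 (6) and Wnt8b (5) held fewer, close to the median of all windows, and the highest count was 48. The 18 genes above background had a median of 30 CpG and the 8 below it a median of 18, given as a description only. Windows of the brightest member, Sfrp2 (chr3:83766071-83766320, plus strand, 16 CpG), of Frzb (chr2:80447397-80447646, minus strand, 16 CpG) and of the dimmest member, Wnt8b (chr19:44493222-44493471, plus strand, 5 CpG), follow 5′ to 3′ with CpG in capitals.
Sfrp2: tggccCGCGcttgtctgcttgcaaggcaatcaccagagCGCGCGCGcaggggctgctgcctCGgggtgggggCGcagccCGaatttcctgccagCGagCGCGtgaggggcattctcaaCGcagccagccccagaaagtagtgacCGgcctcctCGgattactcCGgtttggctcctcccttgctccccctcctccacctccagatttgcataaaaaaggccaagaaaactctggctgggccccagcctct
Frzb: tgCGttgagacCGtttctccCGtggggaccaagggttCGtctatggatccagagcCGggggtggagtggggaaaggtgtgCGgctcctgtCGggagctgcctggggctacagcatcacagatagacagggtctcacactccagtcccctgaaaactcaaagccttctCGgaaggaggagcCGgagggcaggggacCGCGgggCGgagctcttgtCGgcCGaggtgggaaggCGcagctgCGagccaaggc
Wnt8b: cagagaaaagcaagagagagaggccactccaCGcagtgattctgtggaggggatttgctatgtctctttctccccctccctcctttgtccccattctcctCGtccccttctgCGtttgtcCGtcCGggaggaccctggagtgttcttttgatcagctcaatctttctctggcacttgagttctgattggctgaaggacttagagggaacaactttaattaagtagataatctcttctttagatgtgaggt
Sfrp2 and Frzb, which lay on opposite sides of the background limit, held the same number of CpG in this window.

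The second question was whether the genes differed between Meg2 knockout and wild-type retina. None of the 38 passed correction over the 23410 named clusters in limma (lowest adjusted p = 0.9995), where 0 of all clusters (0%) passed and 803 had an unadjusted p under 0.05. At an unadjusted p under 0.05, limma gave 2 genes, Wnt5a and Wnt8a, both with higher signal in the knockout. That is 5.26% of the 38 genes beside 3.43% of all named clusters, or 2 genes beside 1.69% of clusters in the same direction, too few genes to read as more than the background. In 3 genes, Wnt5a, Wnt8a and Frzb, every knockout array lay above every wild-type array (7.89% of the genes, against 8.43% of all clusters in either direction and 4.08% with the knockout higher). No gene was lower in the knockout without overlap, against 4.35% of clusters. With the replicate number as a block, Wnt5a and Wnt8a were again the 2 genes at an unadjusted p under 0.05, beside 8.81% of all clusters, and 0 passed correction, beside 0.00427% (limma). The median difference, knockout minus wild type, was 0.046 on the log2 scale over the 38 genes and 0.0012 over all named clusters, with 26 genes (68.4%) above 0 and 12 below, beside 50.7% of all named clusters above 0. Averaged over the 30 genes above background, the deviation from the 6-array mean lay between -0.012 and 0.074 on the knockout arrays. On the wild-type arrays it lay between -0.035 and -0.017. The genotypes did not overlap, but knockout replicate 2 (-0.012) and wild-type replicate 2 (-0.017) were close, and the 0.074 was that of knockout replicate 1. The genotypes overlapped for the averages over all 38 genes and over all named clusters. The median was 0.011 without knockout replicate 1 (21 of 38 genes above 0), 0.079 without knockout replicate 2 (26) and 0.073 without wild-type replicate 1 (22).

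**Figure D2:**
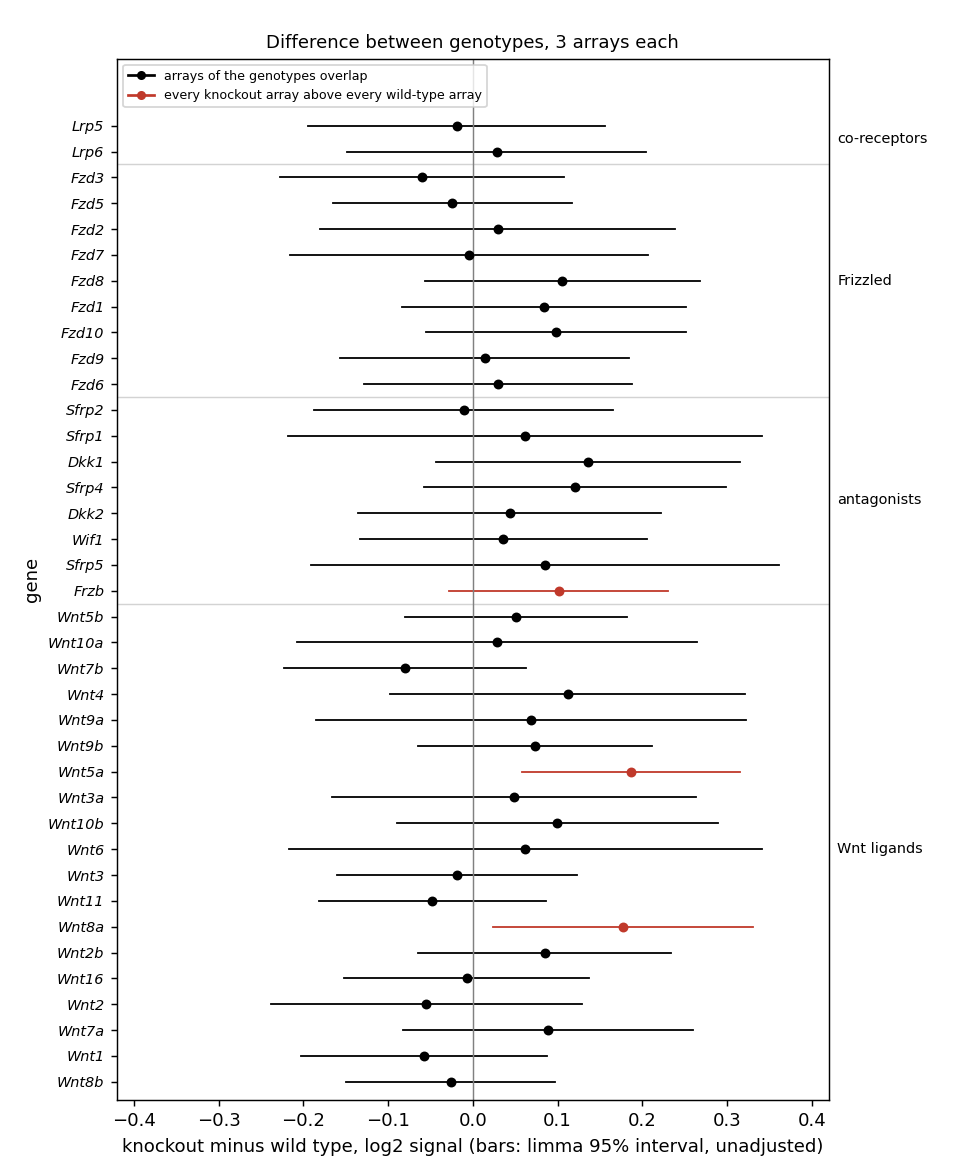
Difference in log2 signal, knockout minus wild type (3 arrays each), of the 38 genes grouped by role, with unadjusted 95% intervals from limma. Points run from -0.08 to 0.19, and the intervals of Wnt5a and Wnt8a lie above 0, while neither gene passed correction.

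Wnt5a, a ligand known mainly for signals that do not pass through beta-catenin, read 7.82, 7.86 and 7.93 in the knockout and 7.70, 7.68 and 7.69 in the wild type. The wild-type arrays lay within a spread of 0.0088 (SD, n = 3), against 0.053 (SD, n = 3) in the knockout, and the groups did not overlap. The difference was 0.19 (SE 0.057; limma, unadjusted p = 0.00963, adjusted p = 0.9995), a 1.14-fold higher signal, and it was above 0 within each replicate number (0.13, 0.19 and 0.24). Without the number 2 arrays it was 0.19 (limma, unadjusted p = 0.051). The mean signal of Wnt5a lay above the background limit but below the 99th percentile of the olfactory receptor clusters.

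Wnt8a, a ligand of the gastrulating embryo, read 7.46, 7.32 and 7.47 in the knockout and 7.28, 7.16 and 7.28 in the wild type. Here the number 2 arrays were the lowest of each genotype, and the lowest knockout array stood just above the highest wild-type array. The difference was 0.18 (SE 0.068; limma, unadjusted p = 0.0286, adjusted p = 0.9995), at a signal close to background. The unadjusted p was 0.0745 without knockout replicate 1, 0.0867 without knockout replicate 3 and 0.117 without wild-type replicate 2 (limma).

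Frzb, a secreted Frizzled-related antagonist of cartilage and mesenchyme, read 6.65, 6.74 and 6.70 in the knockout and 6.64, 6.58 and 6.57 in the wild type. The groups did not overlap, yet knockout replicate 1 and wild-type replicate 1 were only 0.015 apart. The difference was 0.10 (SE 0.057; limma, unadjusted p = 0.11, adjusted p = 0.9995), at a signal below the background limit.

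Most marker lists, of neural retina and of other cells, held more genes with higher than with lower signal in the knockout, the direction of Wnt5a, Wnt8a and Frzb. For the vessels, 8 of 10 endothelial and pericyte markers were higher on average, and the list's mean deviation from the 6-array mean lay between -0.083 and 0.23 on the knockout arrays and between -0.17 and -0.031 on the wild-type arrays. For periocular mesenchyme and fibroblasts 6 of 9 markers were higher, with -0.011 to 0.14 against -0.11 to 0.015. For lens 15 of 17 were higher, with -0.035 to 0.27 against -0.14 to -0.025. Microglia and macrophage markers were higher for 7 of 8, with -0.074 to 0.21 against -0.14 to -0.014. The genotypes overlapped in each list when all 6 arrays were compared. Within each replicate number, however, the knockout array stood above the wild-type array in each of these lists. The vessel list was closest at number 2 (-0.083 against -0.11). In the 4 lists 7 of 10, 5 of 9, 13 of 17 and 7 of 8 markers stood above background. The mean differences of these 4 lists were 0.21, 0.11, 0.18 and 0.15. Ciliary margin markers were higher for 5 of 8 (mean difference 0.087), pigment epithelium and melanocyte markers for 6 of 10 (0.057), astrocyte markers for 5 of 6 (0.053) and red blood cell markers for 2 of 4 (0.0030). Among the neural lists, progenitor markers were higher for 6 of 7 (0.019), amacrine and horizontal cell markers for 6 of 8 (0.030), photoreceptor precursor markers for 5 of 7 (0.025) and ganglion cell markers for 3 of 7 (-0.031). The part of these cells in the differences of Wnt5a, Wnt8a and Frzb was not tested.

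For the receptors and antagonists with strong signal, the 95% interval of the difference between genotypes held 0. Sfrp2 differed by -0.011 (SE 0.078; 95% interval -0.19 to 0.17 in limma), Lrp5 by -0.019 (SE 0.077; -0.19 to 0.16) and Lrp6 by 0.028 (SE 0.078; -0.15 to 0.20). Fzd3 differed by -0.060 (SE 0.074), Fzd5 by -0.024 (SE 0.062), Fzd2 by 0.029 (SE 0.092) and Fzd7 by -0.0044 (SE 0.093), the last with its sign turned under cyclic loess. Over the 11 receptors and co-receptors, the differences ran from -0.060 to 0.11. Their unadjusted 95% intervals, each for a single gene, reached from -0.23 to 0.27, or 1.20-fold in array signal at the widest. They set no joint limit for the 11 genes. Sfrp1 had a wider interval, -0.22 to 0.34 around 0.062 (SE 0.12). The 27 genes not given one by one differed by -0.080 (Wnt7b) to 0.14 (Dkk1), with a lowest unadjusted p of 0.121 (limma), and their intervals reached from -0.24 (Wnt2) to 0.36 (Sfrp5). The other cluster of Wnt4 differed by -0.0051 (SE 0.076), against 0.11 (SE 0.092; 95% interval -0.097 to 0.32 in limma) in the brighter one.

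For many members, as for many clusters of the whole array, the arrays of 1 replicate number lay apart from the others. For 15 of the 38 genes (39.5%) both number 2 arrays lay above, or both below, all 4 other arrays, beside 24.9% of all named clusters. Number 1 set 14 genes apart (36.8%, beside 26.6%) and number 3 set 6 apart (15.8%, beside 20.2%). These counts were made after the values were seen and carry no test.

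On the number 2 arrays, Sfrp1, Sfrp2, Fzd5, Fzd6, Fzd7 and Fzd9 were high. Sfrp1 averaged 0.34 above the other 4 arrays there, Fzd7 0.22 and Sfrp2 0.16. Lrp5, Fzd2, Fzd1, Dkk2, Sfrp5, Wnt7a, Wnt9a, Wnt10b and Wnt16 were low, with Fzd2 at -0.22 and Lrp5 at -0.15 relative to the other arrays. Sfrp1 and Fzd2 thus moved in opposite directions between the same animals. With the replicate number as a block, the SE of the Sfrp1 difference fell from 0.12 to 0.054 and that of Fzd2 from 0.092 to 0.055. The adjusted p was 0.762 for Sfrp1 and 0.903 for Fzd2 with the block, and 0.9995 for both without it (limma).

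**Figure D3:**
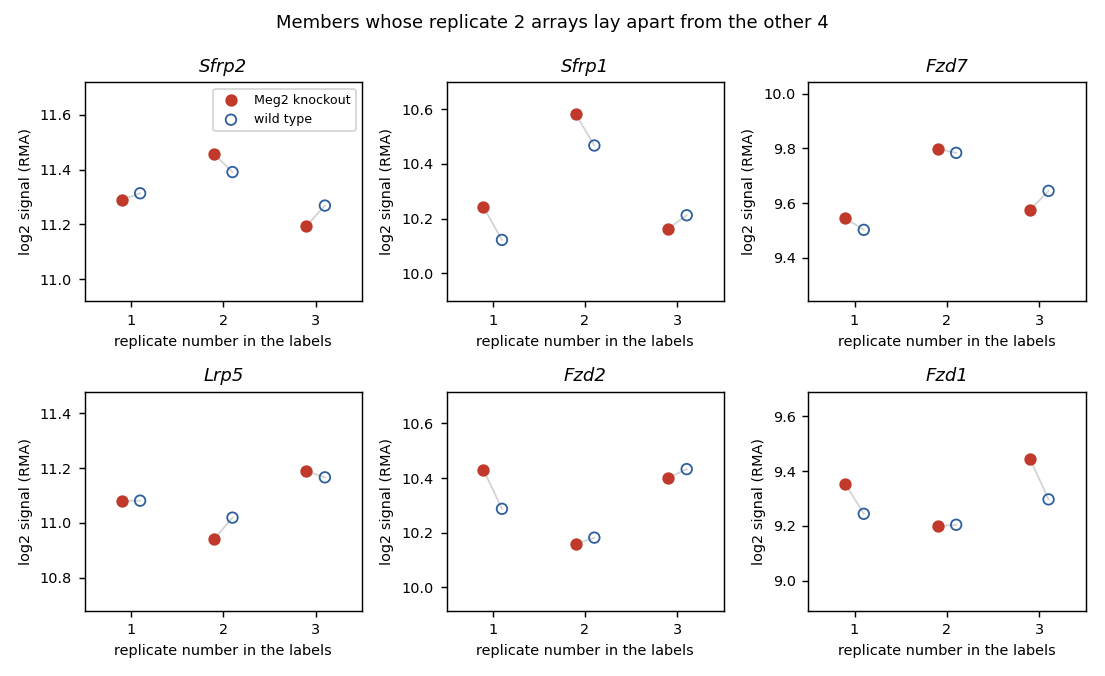
Log2 signal of 6 genes by the replicate number in the labels, with knockout (filled) and wild-type (open) arrays of the same number joined by a grey line. Sfrp2, Sfrp1 and Fzd7 are highest on both number 2 arrays, and Lrp5, Fzd2 and Fzd1 lowest on both.

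Markers of retinal cells moved with the replicate number too. The ganglion cell list stood at 0.13 and 0.060 on the number 2 arrays of knockout and wild type, against -0.12 to 0.041 on the others. The photoreceptor precursor list stood at -0.15 and -0.071 on the number 2 arrays and at 0.22 and 0.087 on the number 3 arrays. Number 2 was also the number with Xist and Uty signal together. The part of cell makeup or of sex in the levels of Sfrp1, Fzd7 and Fzd2 was not tested.

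Ligands had their highest value on 1 array more often than on any other. Knockout replicate 1 was the highest of the 6 arrays for 15 of the 38 genes and for 10 of the 19 ligands (52.6%), beside 21.5% of all named clusters and 35.4% of the olfactory receptor clusters. The mean deviation of the ligands was 0.12 on that array, and that of the olfactory receptor clusters 0.064. Wnt6 read 8.03 there and 7.53 to 7.69 on the other arrays. Wnt10a read 8.80 there against 8.39 to 8.64. Olfactory receptor clusters were thus raised on the same array. So were the marker lists of pigment epithelium and melanocytes (0.19), vessels (0.17), periocular mesenchyme (0.14), microglia (0.093), ciliary margin (0.085), red blood cells (0.041) and lens (0.033). The neural lists lay below their 6-array mean there, from -0.070 (progenitors) to -0.033 (photoreceptor precursors), and the astrocyte list stood at -0.0013. The share of background signal or of these cells in the ligands' signal was not tested.

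**Figure D4:**
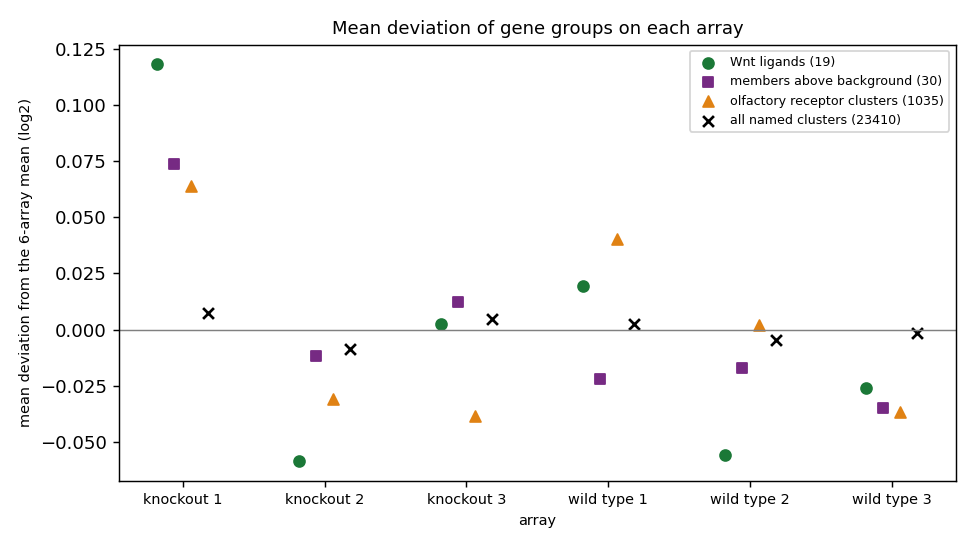
Mean deviation from the 6-array mean, in log2 signal, of the 19 ligands, the 30 genes above background, the 1035 olfactory receptor clusters and all 23410 named clusters, on each array. Ligands and olfactory receptor clusters are highest on knockout replicate 1, at 0.12 and 0.064.

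Several Wnt genes lie next to each other on the chromosome. In the RefSeq gene order of GRCm38.p6, 4 pairs of members were direct neighbours among protein-coding genes. Wnt6 and Wnt10a were both highest on knockout replicate 1, as were Wnt3a and Wnt9a, whereas Wnt9b and Wnt3, and Wnt10b and Wnt1, had different highest arrays. The genotype differences in the pairs were 0.062 and 0.029, 0.049 and 0.069, 0.073 and -0.019, and 0.099 and -0.058, none past correction (limma, adjusted p = 0.9995 for each).

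The third question was whether other parts of the pathway differed. Of 72 listed genes of Wnt secretion, R-spondin signalling, the beta-catenin route, its feedback targets and planar polarity, 71 were measured and 66 stood above background. None passed correction in limma (lowest adjusted p = 0.9995), and at an unadjusted p under 0.05 there were 0 higher and 1 lower, beside 3.43% of all clusters. The median difference was 0.010, against 0.0012 over all clusters. The single gene was Celsr2, a planar polarity cadherin, which read 10.92, 10.97 and 10.79 in the knockout and 11.00, 11.10 and 11.09 in the wild type. Its difference was -0.17 (SE 0.067; limma, unadjusted p = 0.0329, adjusted p = 0.9995), and the groups did not overlap. The unadjusted p was 0.117 without knockout replicate 3, 0.103 without wild-type replicate 2 and 0.0899 without wild-type replicate 3 (limma). Kremen1, a receptor for Dkk proteins, and Scrib, a polarity scaffold, chosen after their values were seen, also did not overlap, 3 of 71 genes in all beside 4.35% of clusters, and differed by -0.090 (SE 0.054) and -0.11 (SE 0.059).

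Among the feedback and target genes of beta-catenin signalling on the list, none had an unadjusted p under 0.05 (limma). Axin2, a feedback target, read 9.11, 8.92 and 9.23 in the knockout and 9.11, 9.14 and 9.15 in the wild type, a difference of -0.046 (SE 0.082). Its lowest array was knockout replicate 2, and without that array the difference was 0.040. Lef1, a target and nuclear partner of beta-catenin, differed by 0.056 (SE 0.057). The next 6 feedback and target genes were picked after their values were seen, for larger differences, all with a higher mean in the knockout. Nkd1 and Rnf43, not among the 6, differed by 0.023 (SE 0.058) and 0.039 (SE 0.082). Over the whole pathway list 40 of 71 genes (56.3%) were above 0, beside 50.7% of all named clusters. Nkd2 differed by 0.14 (SE 0.089), Myc by 0.11 (SE 0.088), Znrf3 by 0.10 (SE 0.079), Apcdd1 by 0.099 (SE 0.076), Sp5, whose mean signal lay below the background limit, by 0.078 (SE 0.072) and Notum by 0.076 (SE 0.063). The arrays of the genotypes overlapped for each of these 6 genes, and Znrf3, a ligase that removes Frizzled receptors from the cell surface, was 0.094, 0.10 and 0.11 higher within the replicate numbers. Ctnnb1, the gene of beta-catenin, and Ccnd1, the cyclin of retinal progenitors, averaged 13.04 and 13.97 and differed by 0.025 (SE 0.054) and 0.013 (SE 0.054), the latter turning to -0.021 under cyclic loess. Ndp, the gene of Norrin, a secreted ligand that is no Wnt, differed by -0.020 (SE 0.097). Wls, which carries Wnt proteins to the cell surface, averaged 6.33, below the background limit, and differed by 0.010 (SE 0.069).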

How the data were processed

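The authors deposited 1 log2 signal for each transcript cluster, made with Affymetrix Expression Console and RMA per the submitters' processing notes, which also name Transcriptome Analysis Console. RMA corrects background and gives all arrays 1 distribution, so a shift shared by most transcripts is removed. The sources used here do not give versions. A platform annotation named 1 gene for 21789 of 35557 clusters, several for 1621 and none for 12147. The 23410 named clusters entered limma 3.58.1 (lmFit and eBayes, R 4.3.3), with Benjamini-Hochberg adjustment over all of them called at 0.05. Differences subtract the wild-type mean from the knockout mean and carry moderated SEs. Exact permutation of 3 against 3 arrays cannot go below p = 0.1 and was not used. The fit without the block was tested on simulated data whose arrays varied independently, so not under the likeness between arrays of the same replicate number.

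The members and lists were chosen with earlier results of these data known. Genes given array by array had 1 of the 8 highest mean signals, genotypes whose arrays did not overlap, or an unadjusted p under 0.05. From the pathway list, genes with an unadjusted p under 0.05 and Wls, Ctnnb1, Axin2, Lef1, Ndp and Ccnd1 were given. Replicate numbers come from the labels. Deviations from the group means correlated at 0.476, 0.485 and 0.455 between arrays of the same number. The numbers were therefore taken as pairs in a second, blocked fit, run for every result. SEs, intervals and p-values come from the fit without the block unless the block is named. Alternatives were other scalings, variance models, array weights, signal filters, all clusters, a mean over a gene's clusters, other background limits, each array left out and, added after seeing the data, the number 2 arrays left out. Tables and figures used pandas 2.3.3 and matplotlib 3.10.9 in Python 3.11.15.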

Additional observations from a re-analysis of the deposited data

How the results depend on the processing

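No member and no pathway gene passed correction under any alternative run, and Wnt5a, Wnt8a, Frzb, Fzd3, Celsr2, Ctnnb1 and Lef1 kept their direction in those run for them (the filter at the median signal removed Wnt5a, Wnt8a, Lef1 and Frzb, and that at the 25th percentile removed Frzb). With the replicate number as a block, 1 of all named clusters passed correction and 2063 had an unadjusted p under 0.05 (803 without it), while Wnt5a and Wnt8a remained the 2 members at that level, with a lowest adjusted p of 0.514 over members. The block changed no other call. Among clusters above the median signal, which hold 12 members, 0 members had an unadjusted p under 0.05 and 0 did not overlap, beside 431 (3.68%) and 1074 (9.18%) of the 11705 clusters kept. With every row of the table these were 1331 and 3053. With the 99th percentile as background limit 19 members stood above it. Without both number 2 arrays, 1 member (Wnt8a) had an unadjusted p under 0.05, beside 3.02% of clusters. Then 12 of the 38 members and 6799 clusters (29%) did not overlap, where fewer arrays overlap less. Lrp5 then differed by 0.011, Axin2 by 0.045 and Ndp by 0.013. Ndp differed by 0.020 with array weights, and Fzd7 and Ccnd1 by 0.0026 and -0.021 under cyclic loess. Leaving out each array in turn gave 1 to 3 members and 636 (2.72%) to 1298 (5.54%) clusters at an unadjusted p under 0.05, with 0 to 3 pathway genes. It left 4 to 9 of the 38 members and 3699 (15.8%) to 5143 (22%) clusters without overlap. The median member difference was 0.011 to 0.079 over these runs. Differences then ran from -0.083 to 0.049 for Sfrp2, -0.079 to 0.046 for Lrp5, -0.052 to 0.012 for Fzd5, -0.030 to 0.11 for Fzd2, -0.065 to 0.16 for Sfrp1, -0.039 to 0.087 for Lrp6, -0.084 to 0.066 for Fzd7, -0.050 to 0.063 for Wls, -0.12 to 0.040 for Axin2 and -0.13 to 0.046 for Ndp. The cause was not tested. With 3 arrays per genotype and signals near background, differences below about the stated intervals could not be resolved in the fit without the block.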
